A study of Mus musculus with 11 samples.

Results

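Collagen genes were examined in RNA sequencing of lacrimal glands from male NOD mice, a strain that spontaneously develops lacrimal gland inflammation. Members were all genes whose symbol is Col, digits, a, digits, and 40 of the 19058 genes listed met this rule. By structural class they were 9 fibrillar, 9 basement membrane, 6 beaded filament (type VI), 8 fibril-associated, 4 transmembrane and 2 short-chain network collagens, with 2 others (*Col26a1* and *Col28a1*). A single gland from each of 11 mice gave 1 library per mouse: 3 wild-type (WT), 5 *Tlr7* KO and 3 *Ifnar1* KO mice, all on the NOD background. The *Tlr7* KO strain carries a 2 base-pair deletion made by gene editing in the gene of the endosomal receptor for single-stranded RNA, in all cells. The *Ifnar1* KO strain carries an edited allele of a chain of the type I interferon receptor, also in all cells. WT and *Tlr7* KO mice were 20 to 22 weeks of age, and the sources used here give no age for the *Ifnar1* KO mice sequenced. The study removed a further *Ifnar1* KO mouse after inspecting its expression profile and gland inflammation, so this group was chosen partly on an outcome. The comparisons ask how collagen transcripts differ when either signal is missing.

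Most collagens are secreted proteins, while the transmembrane ones stay in the cell membrane. Their chains wind into a stiff helix, which requires a glycine at every turn. Fibrillar collagens (types I, III and V among them) assemble into the cables of stroma, and fibril-associated collagens coat those cables. Type IV forms the sheet of the basement membrane under gland epithelium and around vessels, type VII anchors that sheet to the stroma, and type VI forms beaded filaments at the border of both. In a gland, fibroblasts make most of the fibrillar chains, and epithelial, myoepithelial and endothelial cells add basement membrane chains. Whole glands were sequenced, so fewer cells of a type and less RNA per cell cannot be told apart.

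Exon structure differed between the classes, with overlap. In the longest coding model of each member (GENCODE M21, GRCm38), 250 of the 528 coding exons of fibrillar members were exactly 54 bases long, or 47.3%, against 4.44% of 495 basement membrane and 7.80% of 218 beaded filament exons. The longest unbroken run of glycine at every turn was 216 to 344 repeats in fibrillar, 30 to 75 in basement membrane and 37 to 87 in beaded filament members. Fibril-associated members lay between, with 24.6% of 382 exons and runs of 32 to 113. The following short coding exons show the repeat in the most abundant fibrillar members, in a type IV chain, and in 4 members that were lower in *Tlr7* KO. Each is read 5′ to 3′ on the coding strand, and capitals mark the glycine codon (GGN) that opens each repeat. *Col1a1* is shown at chr11:94938378-94938413 (+ strand), *Col1a2* at chr6:4509604-4509639 (+), *Col3a1* at chr1:45325360-45325413 (+), *Col4a1* at chr8:11246863-11246907 (− strand), *Col27a1* at chr4:63231792-63231845 (+), *Col6a4* at chr9:106057381-106057434 (−), *Col12a1* at chr9:79614349-79614402 (−) and *Col23a1* at chr11:51558429-51558464 (+).
Col1a1: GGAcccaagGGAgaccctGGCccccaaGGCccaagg
Col1a2: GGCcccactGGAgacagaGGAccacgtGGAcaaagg
Col3a1: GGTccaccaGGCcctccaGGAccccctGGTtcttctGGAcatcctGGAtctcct
Col4a1: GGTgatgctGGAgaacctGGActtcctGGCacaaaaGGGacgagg
Col27a1: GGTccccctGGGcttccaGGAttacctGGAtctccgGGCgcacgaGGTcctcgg
Col6a4: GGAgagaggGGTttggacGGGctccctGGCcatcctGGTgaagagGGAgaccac
Col12a1: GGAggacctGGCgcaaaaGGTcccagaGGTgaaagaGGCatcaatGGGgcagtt
Col23a1: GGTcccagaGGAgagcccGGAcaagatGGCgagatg
In all 8, a glycine codon opens every repeat of 3 codons, which holds by choice. Each is the first short exon, read in frame, of its chain with this pattern. *Col17a1*, also lower in *Tlr7* KO, is not shown because none of its exons met this choice. The chains differ in the codons between.

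Between 20512315 and 28814250 counts per mouse were assigned to genes, and 1614 to 6916 of them to collagen genes. Levels are given as CPM, counts scaled to a common library size with edgeR's TMM factors over all 11 mice, and a floor of 3 counts lay between 0.082 and 0.158 CPM. Floors cover counting error only. WT 2 stood apart from the other WT mice: its collagen genes summed to 68.0 CPM, against 198.1 in WT 1 and 188.9 in WT 3. Of the 28 members tested, 25 (89.3%) were lowest in WT 2 among the WT mice, against 46.2% of all genes tested. Its summed level of 9 immune markers was also low, at 76.3 CPM against 268.8 and 232.0. The transcripts of the edited genes do not check the labels, since *Tlr7* was 2.39 ± 0.763 CPM in WT (SD, n = 3), 0.778 ± 0.176 in *Tlr7* KO (n = 5) and 0.562 ± 0.289 in *Ifnar1* KO (n = 3). *Ifnar1* was 13.5 ± 2.62, 9.55 ± 1.08 and 9.01 ± 0.648 CPM, and did not differ detectably between the knockouts (adjusted p = 0.717, edgeR).

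Per kilobase of exon, and averaged over all 11 mice, *Col3a1* had the highest level of the members at 3.83 CPM per kb. *Col7a1* followed at 2.96, *Col1a2* at 1.51, *Col1a1* at 1.33, *Col6a1* at 1.12 and *Col4a1* at 1.11. This order differed between mice: *Col7a1* was above *Col3a1* per kb in WT 2, WT 3 and *Ifnar1* KO 1, and the WT mean of *Col6a1* (1.55) was above that of *Col1a1* (1.21). Exon length was the union over all annotated models, which lowers the value of genes with long rare models. *Col1a2* had 12426 exon bases for 1372 codons and *Col7a1* had 10287 for 2944, so the order of these genes depends on the length used. *Col7a1*, the single chain of anchoring fibrils, was second of the 40 in the pooled order, and was singled out after its values were seen. Its 11 values overlapped widely between groups: 27.9, 18.8 and 37.0 CPM in WT, 25.2, 26.8, 36.6, 39.1 and 27.9 in *Tlr7* KO, and 36.3, 27.1 and 32.9 in *Ifnar1* KO. At the low end, *Col8a2*, *Col9a1* and *Col25a1* had 3 counts or fewer in every mouse. *Col8a1*, *Col8a2*, *Col9a1*, *Col9a2*, *Col4a3*, *Col4a4*, *Col5a3*, *Col13a1*, *Col24a1*, *Col25a1*, *Col26a1* and *Col28a1* had fewer than 30 counts summed over the WT mice and were not tested.

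**Figure D1:**
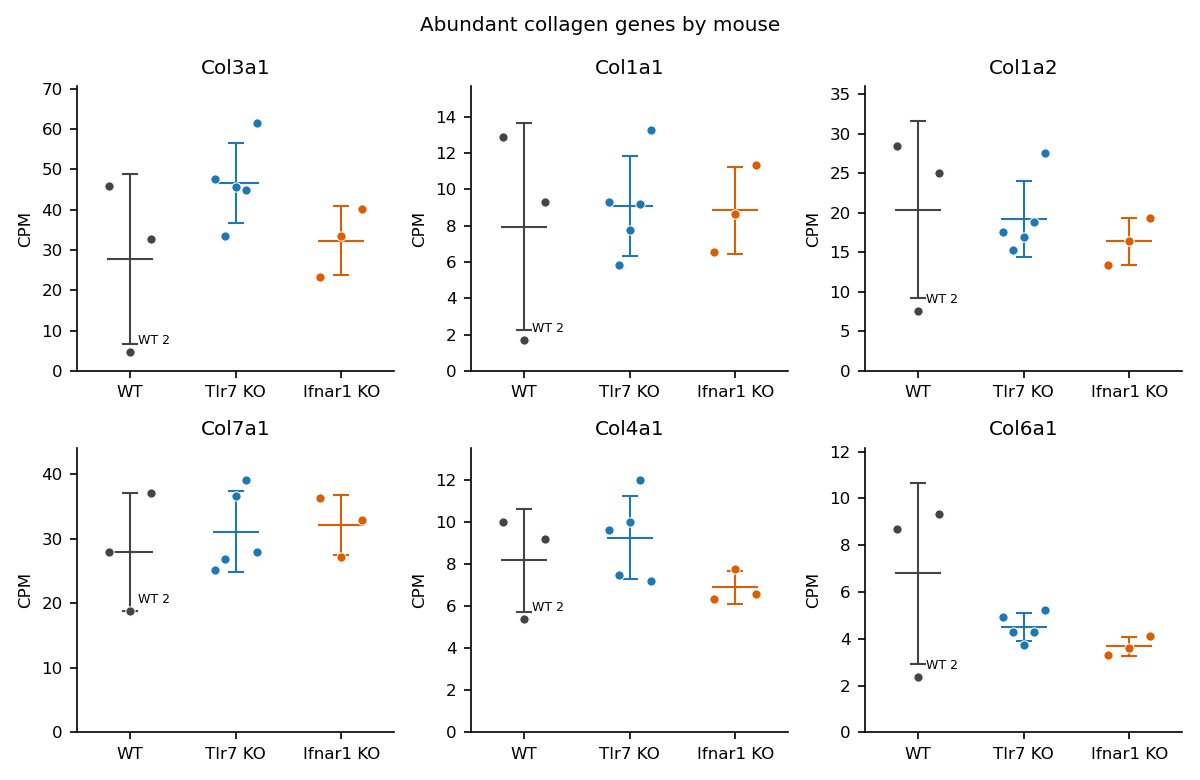
CPM of 6 abundant collagen genes, with 1 point per mouse, a bar at the group mean and whiskers of 1 SD (WT n = 3, *Tlr7* KO n = 5, *Ifnar1* KO n = 3); each vertical axis starts at 0. WT 2 was the lowest of the 11 mice for *Col3a1*, *Col1a1*, *Col1a2*, *Col7a1*, *Col4a1* and *Col6a1*.

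Among members that passed the filter on WT counts, collagen calls against WT with all mice were lower in the knockout, and their number depended on WT 2. In *Tlr7* KO against WT, 5 of the 28 members tested were lower at an adjusted p under 0.05 and none was higher, while 32.7% of all 13937 genes tested were called and 17.4% were called lower. The members' share called lower, 17.9%, was near that of all genes in this fit. With WT 2 left out it was 39.3% in each knockout (11 of 28), beside 24.9% of all genes called lower in *Tlr7* KO and 20.2% in *Ifnar1* KO. WT 2 stood apart by its low collagen levels, so leaving it out raises the WT level of collagens in particular. The shares without WT 2 are therefore no evidence of a result particular to collagens. The 5 members called in *Tlr7* KO with all mice were *Col6a4*, *Col27a1*, *Col23a1*, *Col12a1* and *Col17a1*. No member was called in *Ifnar1* KO against WT (0 of 28, edgeR, against 19.2% of all genes), where 3 had an unadjusted p under 0.05 and DESeq2 called 2, beside 24.1% of all genes by DESeq2. None was called between the knockouts either (0 of 28, against 1.79% of all genes), where 4 had an unadjusted p under 0.05 and DESeq2 called 0 (4.09% of all genes). Median log2 fold changes of the 28 members were -0.17, -0.36 and 0.15 in these comparisons, beside -0.04, -0.02 and 0.00 over all genes tested. Both comparisons with WT share the same 3 WT mice. Groups did not overlap for 3 of the 28 members in *Tlr7* KO against WT (30.8% of all genes), for 3 in *Ifnar1* KO against WT (41.8%) and for 1 between the knockouts (10.7%). These were *Col12a1* and *Col23a1* (lower) and *Col5a2* (higher), then *Col12a1*, *Col23a1* and *Col27a1* (lower), then *Col6a5* (higher in *Tlr7* KO).

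**Figure D2:**
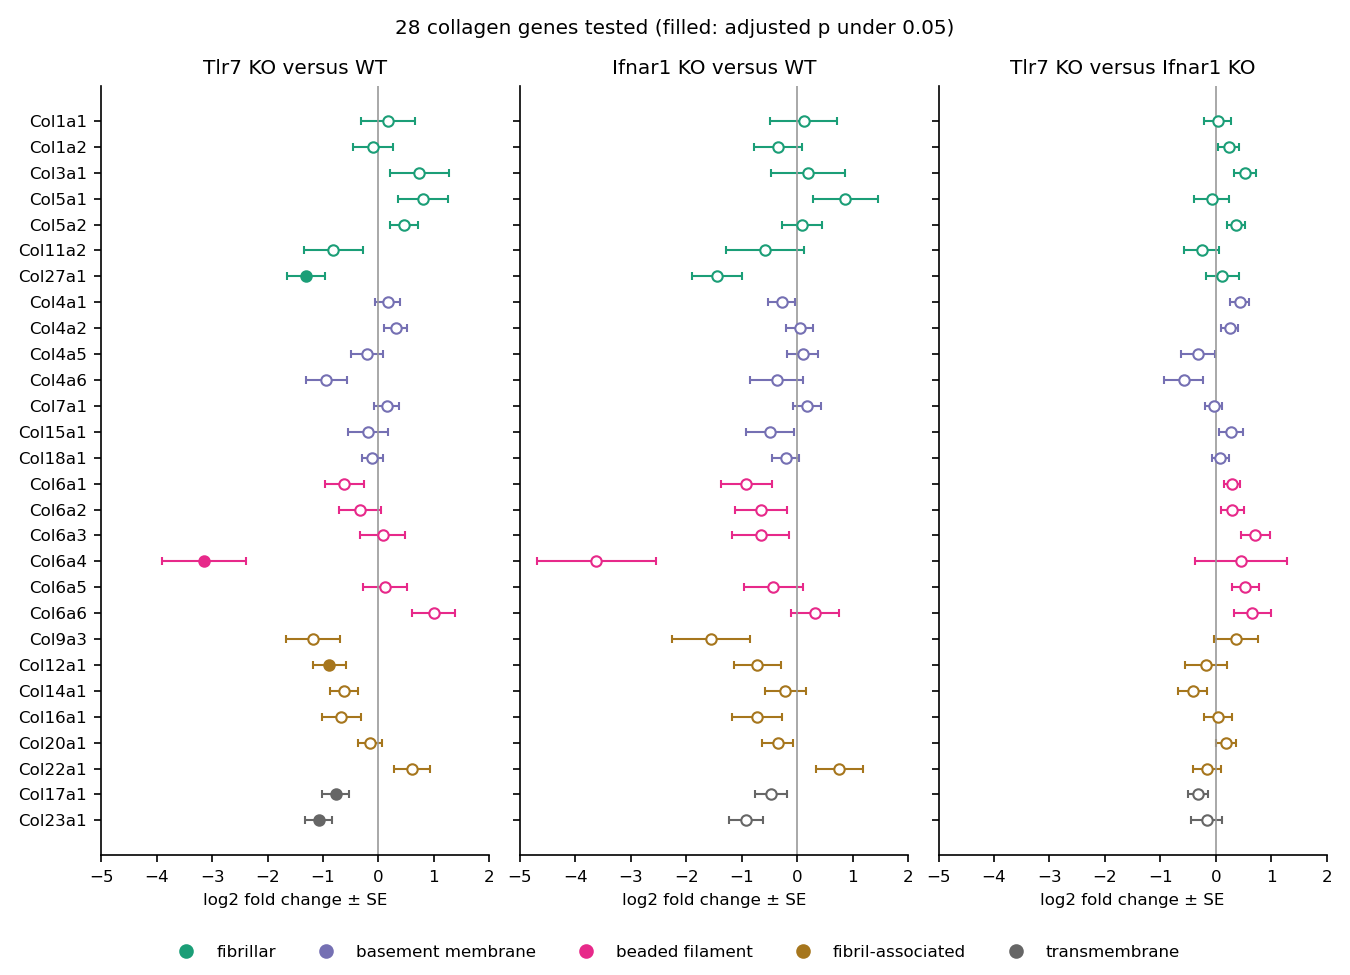
Log2 fold change (horizontal axis) with its SE for each of the 28 collagen genes tested, by class, in 3 comparisons; filled points have an adjusted p under 0.05 over all genes. The 5 filled points lie in *Tlr7* KO against WT, all below 0, with *Col6a4* farthest at -3.15.

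Among fibrillar members, *Col1a1*, *Col1a2*, *Col3a1*, *Col5a1* and *Col5a2* did not pass the test in any comparison, and a minor chain, *Col27a1*, did. With WT 2 left out, *Col1a2* was lower in *Ifnar1* KO (adjusted p = 0.0229). *Col1a1* and *Col1a2* encode the chains of type I collagen, the main cable of stroma. *Col1a1* was 12.9, 1.69 and 9.29 CPM in WT, 9.33, 5.82, 7.75, 9.18 and 13.3 in *Tlr7* KO, and 6.57, 8.63 and 11.3 in *Ifnar1* KO. WT 2 alone lay below all knockout mice, and the other WT mice lay among or near them. The log2 fold change was 0.17 in *Tlr7* KO (SE 0.49, adjusted p = 0.811) and 0.12 in *Ifnar1* KO (SE 0.60, adjusted p = 0.905). *Col1a2* was 28.5, 7.59 and 25.1 CPM in WT, 17.6, 15.3, 17.0, 18.9 and 27.6 in *Tlr7* KO, and 13.4, 16.4 and 19.4 in *Ifnar1* KO. WT 1 was the highest of the 11 mice and WT 2 the lowest, so the groups overlapped (log2 fold change -0.09, SE 0.36, adjusted p = 0.859 in *Tlr7* KO, and -0.34, SE 0.44, adjusted p = 0.603 in *Ifnar1* KO).

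*Col3a1*, the chain of type III collagen, was 45.8, 4.6 and 32.8 CPM in WT, 47.5, 33.5, 45.6, 45.0 and 61.4 in *Tlr7* KO, and 23.3, 33.5 and 40.3 in *Ifnar1* KO. WT 2 was 11.7% of the mean of the other WT mice. The log2 fold change was 0.74 in *Tlr7* KO (SE 0.53, adjusted p = 0.313) and 0.19 in *Ifnar1* KO (SE 0.67, adjusted p = 0.857). Type V collagen seeds fibrils and sets their width. For *Col5a1* the values were 4.92, 0.843 and 3.01 CPM in WT, 3.98, 3.87, 7.82, 5.77 and 4.54 in *Tlr7* KO, and 3.57, 8.59 and 4.35 in *Ifnar1* KO (log2 fold change 0.81, SE 0.45, adjusted p = 0.192, and 0.87, SE 0.58, adjusted p = 0.31). Its second chain *Col5a2* was 3.56, 1.52 and 3.72 CPM in WT and 3.74 to 4.54 in *Tlr7* KO, without overlap (log2 fold change 0.46, SE 0.25, adjusted p = 0.192). In *Ifnar1* KO *Col5a2* was 2.45, 3.29 and 3.81 CPM, within the WT range except for the last mouse (0.09, SE 0.36, adjusted p = 0.887). Without WT 2, *Col5a1* had 0.40 (SE 0.30, adjusted p = 0.312) in *Tlr7* KO and 0.45 (SE 0.41, adjusted p = 0.429) in *Ifnar1* KO. *Col5a2* then had 0.16 (SE 0.12, adjusted p = 0.321) and -0.22 (SE 0.24, adjusted p = 0.492). The *Col3a1* and *Col5a2* genes lie tail to tail on chromosome 1, 24614 bases apart.

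*Col27a1* encodes a fibrillar chain best known from cartilage, and it fell by 1.30 on the log2 scale in *Tlr7* KO (SE 0.35, adjusted p = 0.0199). It was 1.44, 0.675 and 1.99 CPM in WT, 0.536, 0.478, 0.759, 0.535 and 0.475 in *Tlr7* KO, and 0.408, 0.598 and 0.544 in *Ifnar1* KO. WT 2 lay below the highest *Tlr7* KO mouse and above all *Ifnar1* KO mice. In *Ifnar1* KO the log2 fold change was -1.44 (SE 0.45, adjusted p = 0.063). Of the cartilage markers listed, 2 of 6 were in the table and their summed level stayed at or below 0.574 CPM in each mouse. *Col11a2*, another cartilage-type chain, was 1.09, 0.126 and 1.20 CPM in WT, 0.391 to 0.535 in *Tlr7* KO and 0.419 to 0.784 in *Ifnar1* KO (log2 fold change -0.81, SE 0.53, adjusted p = 0.266, and -0.58, SE 0.70, adjusted p = 0.579). Without WT 2, *Col11a2* was lower in *Tlr7* KO (-1.29, adjusted p = 0.00361) and *Col27a1* also in *Ifnar1* KO (-1.76, adjusted p = 0.0106). *Col24a1*, a fibrillar chain that was not tested, had 2, 2 and 7 counts in WT and 0 in all 8 knockout mice. Both levels were near the floor of 3 counts, so no fold is given.

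None of the 7 basement membrane members tested was called in any comparison with all mice. With WT 2 left out, *Col4a6* was lower in *Tlr7* KO (adjusted p = 0.00723), and *Col4a1* and *Col15a1* were lower in *Ifnar1* KO (adjusted p = 0.0346 and 0.0216). Their summed level, *Col4a3* and *Col4a4* included, was 53.2, 33.3 and 63.2 CPM in WT, 45.9 to 66.0 in *Tlr7* KO and 49.3 to 55.2 in *Ifnar1* KO. *Col4a1* and *Col4a2* are the type IV chains found in most basement membranes, transcribed head to head on chromosome 8 from models that overlap by 22 bases. *Col4a1* was 9.98, 5.40 and 9.18 CPM in WT, 9.64, 7.48, 9.99, 12.0 and 7.18 in *Tlr7* KO, and 6.33, 7.77 and 6.57 in *Ifnar1* KO. The partner *Col4a2* was 4.92, 2.99 and 5.16, then 4.59, 5.04, 7.02, 5.68 and 4.91, then 4.66, 5.15 and 3.98 CPM in the same order. Their log2 fold changes were 0.17 (SE 0.22, adjusted p = 0.587) and 0.31 (SE 0.21, adjusted p = 0.269) in *Tlr7* KO, and -0.28 (SE 0.24, adjusted p = 0.436) and 0.05 (SE 0.24, adjusted p = 0.908) in *Ifnar1* KO. The ratio of their counts, which needs no scaling between libraries, was 1.78 to 2.03 in WT, 1.42 to 2.11 in *Tlr7* KO and 1.36 to 1.65 in *Ifnar1* KO.

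The X-linked type IV chains share a head-to-head arrangement too, with 1308 bases between their models. *Col4a5* was 1.40 to 1.72 CPM in WT, 0.695 to 1.74 in *Tlr7* KO and 1.34 to 2.31 in *Ifnar1* KO. *Col4a6* was 1.30, 0.506 and 1.37 CPM in WT, 0.380 to 0.782 in *Tlr7* KO and 0.476 to 1.05 in *Ifnar1* KO, with a log2 fold change of -0.94 in *Tlr7* KO (SE 0.37, adjusted p = 0.0775). *Col4a3* and *Col4a4*, chains known from kidney and other specialised membranes, had at most 6 and 9 counts in any mouse. *Col15a1* and *Col18a1* encode basement membrane collagens that carry sugar chains, and type XVIII is the source of endostatin. *Col15a1* was 3.86, 1.26 and 4.45 CPM in WT, 2.03, 2.22, 3.23, 3.75 and 2.96 in *Tlr7* KO, and 2.18, 2.76 and 2.09 in *Ifnar1* KO (log2 fold change -0.19, SE 0.36, adjusted p = 0.712, and -0.48, SE 0.43, adjusted p = 0.447). *Col18a1* was the steadier of them, at 3.66, 2.40 and 3.93 CPM in WT, 2.74 to 3.69 in *Tlr7* KO and 2.64 to 3.51 in *Ifnar1* KO (-0.11, SE 0.18, adjusted p = 0.676, and -0.21, SE 0.25, adjusted p = 0.578). For *Col7a1* the log2 fold changes were 0.15 (SE 0.22, adjusted p = 0.629) and 0.18 (SE 0.25, adjusted p = 0.634). Both signs turned without WT 2, to -0.068 (SE 0.19, adjusted p = 0.787) and -0.045 (SE 0.17, adjusted p = 0.859).

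The type VI genes held the member with the farthest fold change against WT among the 28 tested. Without the filter on low counts, *Col24a1* and, in *Tlr7* KO, *Col25a1* and *Col28a1* had farther estimates, all from few counts in WT. *Col6a4*, which encodes a long alpha chain of type VI, had 91, 8 and 183 counts in WT, 8, 13, 1, 6 and 9 in *Tlr7* KO, and 9, 10 and 0 in *Ifnar1* KO. In CPM these were 3.11, 0.337 and 5.0, then 0.306, 0.565, 0.038, 0.247 and 0.475, then 0.306, 0.373 and 0. WT 1 and WT 3 were far above every knockout mouse, while WT 2 lay among them. *Col6a4* fell by 3.15 on the log2 scale in *Tlr7* KO (SE 0.76, adjusted p = 0.013), and its log2 fold change in *Ifnar1* KO was -3.62 (SE 1.07, adjusted p = 0.053). Leaving out 1 mouse at a time moved these estimates from -3.67 (without WT 2) to -2.44 (without WT 3) in *Tlr7* KO and from -4.13 to -2.91 in *Ifnar1* KO, with the same mice left out. The *Tlr7* KO call was lost without WT 3 (edgeR adjusted p = 0.0659). Exons of 2 annotated antisense or unclassified genes cover 1.5% and 1.9% of its exon bases, and whether the counting used strand is not given in the sources used here. The 9 immune markers were also lowest in WT 2 among the WT mice, with a summed level of 268.8, 76.3 and 232.0 CPM, and were at 23.5 to 72.3 in *Tlr7* KO and 9.67 to 39.3 in *Ifnar1* KO. Of these 9, 6 were lower in each knockout, beside 17.4% and 12.4% of all genes called lower, and 8 in each without WT 2 (24.9% and 20.2%). WT 2 was also the lowest WT mouse for summed fibroblast, mural, endothelial, and myoepithelial and basal markers, but not for acinar or skeletal muscle markers. The part of any of these cell types in the *Col6a4* result was not tested.

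*Col6a4* lies in a row with *Col6a5* and *Col6a6* on chromosome 9, all on the minus strand, with 28810 and 27917 bases between them. Neither neighbour was called in any comparison. *Col6a5* was 0.923, 0.295 and 1.34 CPM in WT, 0.826 to 1.16 in *Tlr7* KO and 0.544 to 0.783 in *Ifnar1* KO (log2 fold change 0.12, SE 0.40, adjusted p = 0.835, and -0.43, SE 0.53, adjusted p = 0.59). *Col6a6* was 0.957, 0.422 and 1.07 CPM in WT, 0.869 to 2.16 in *Tlr7* KO and 0.715 to 1.26 in *Ifnar1* KO, with log2 fold changes of 1.0 (SE 0.39, adjusted p = 0.0764) and 0.33 (SE 0.43, adjusted p = 0.615). Without WT 2, *Col6a5* had -0.26 (SE 0.25, adjusted p = 0.421) and -0.82 (SE 0.34, adjusted p = 0.103). *Col6a6* then had 0.70 (SE 0.37, adjusted p = 0.144) and 0.026 (SE 0.35, adjusted p = 0.961). The difference of these fold changes from that of *Col6a4* was not tested.

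*Col6a1*, *Col6a2* and *Col6a3* encode the common type VI heterotrimer of stroma. *Col6a1* was 8.68, 2.36 and 9.34 CPM in WT, 4.93, 4.30, 3.72, 4.28 and 5.23 in *Tlr7* KO, and 3.30, 3.62 and 4.10 in *Ifnar1* KO. *Col6a2* was 7.97, 2.07 and 7.79 CPM in WT, 5.81, 3.04, 4.37, 5.52 and 4.96 in *Tlr7* KO, and 3.88, 3.17 and 4.56 in *Ifnar1* KO. *Col6a3* was 4.75, 1.01 and 3.03 CPM in WT, 2.68, 2.39, 2.51, 3.62 and 4.49 in *Tlr7* KO, and 1.43, 2.5 and 1.80 in *Ifnar1* KO. In each of the 3 genes WT 2 was below every knockout mouse, and for *Col6a1* and *Col6a2* the other WT mice were above every knockout mouse. With all WT mice the log2 fold changes were -0.61 (SE 0.35, adjusted p = 0.21), -0.34 (SE 0.38, adjusted p = 0.519) and 0.08 (SE 0.41, adjusted p = 0.901) in *Tlr7* KO. In *Ifnar1* KO they were -0.92 (SE 0.46, adjusted p = 0.187), -0.65 (SE 0.47, adjusted p = 0.344) and -0.65 (SE 0.51, adjusted p = 0.388). Without WT 2, *Col6a2* had -0.74 (SE 0.21, adjusted p = 0.0173) in *Tlr7* KO and -1.05 (SE 0.19, adjusted p = 0.0103) in *Ifnar1* KO, and *Col6a3* had -0.32 (SE 0.27, adjusted p = 0.364) and -1.05 (SE 0.31, adjusted p = 0.0418).

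Fibril-associated members included *Col12a1*, a chain that decorates type I fibrils, which fell by 0.88 on the log2 scale in *Tlr7* KO (SE 0.30, adjusted p = 0.0488). It was 1.09, 0.885 and 0.765 CPM in WT, 0.536, 0.652, 0.342, 0.371 and 0.581 in *Tlr7* KO, and 0.306, 0.635 and 0.753 in *Ifnar1* KO. Every knockout mouse was below every WT mouse, WT 2 included. In *Ifnar1* KO the log2 fold change was -0.72 (SE 0.42, adjusted p = 0.25). The *Tlr7* KO call was near the threshold. It was lost with DESeq2 (adjusted p = 0.0716), the second count table (0.051), no filter on low counts (0.0616), a fit of all 11 mice (0.0624), the replicate block (0.224) and the libraries low in muscle transcripts (0.407), and with any 1 mouse left out other than *Tlr7* KO 2 (0.0524 to 0.181). *Col14a1*, a related chain of the fibril surface, was 4.07, 1.94 and 3.47 CPM in WT, 2.26, 1.39, 2.28, 1.98 and 2.43 in *Tlr7* KO, and 2.01, 2.35 and 3.98 in *Ifnar1* KO (log2 fold change -0.62, SE 0.26, adjusted p = 0.0912, and -0.21, SE 0.37, adjusted p = 0.708). *Col9a3* was 1.03, 0.211 and 1.34 CPM in WT, 0.317 to 0.459 in *Tlr7* KO and 0.204 to 0.486 in *Ifnar1* KO, with adjusted p = 0.0877 and 0.149, and 6.1% of its exon bases are shared with the antisense gene *Tcfl5*. *Col16a1* and *Col20a1* did not pass the test with all mice. Without WT 2, *Col14a1* was lower in *Tlr7* KO (-0.87, adjusted p = 0.00782), *Col9a3* in both knockouts (-1.61, adjusted p = 0.00169, and -2.0, adjusted p = 0.0197) and *Col16a1* in both (-1.01, adjusted p = 0.00964, and -1.07, adjusted p = 0.0385). *Col22a1* had 10 to 37 counts per mouse in this table and 0 in all 11 mice in the second count table, so its values are uncertain.

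Both transmembrane members tested were lower in *Tlr7* KO. *Col17a1* encodes a hemidesmosome collagen that fastens basal epithelial cells to the basement membrane, and *Col23a1* a transmembrane collagen of epithelial surfaces. *Col17a1* was 5.09, 2.53 and 4.78 CPM in WT, 1.84, 2.96, 2.28, 2.84 and 2.32 in *Tlr7* KO, and 3.57, 2.95 and 2.64 in *Ifnar1* KO. WT 2 lay within the knockout range, and the other WT mice above it. *Col17a1* fell by 0.77 in *Tlr7* KO (SE 0.24, adjusted p = 0.0386), and its log2 fold change in *Ifnar1* KO was -0.47 (SE 0.29, adjusted p = 0.279), or -0.72 without WT 2 (adjusted p = 0.0285). *Col23a1* was 2.19, 1.56 and 1.64 CPM in WT, 0.650, 1.04, 1.03, 0.659 and 0.897 in *Tlr7* KO, and 0.817, 0.822 and 1.26 in *Ifnar1* KO. All knockout mice lay below all WT mice. *Col23a1* fell by 1.07 in *Tlr7* KO (SE 0.24, adjusted p = 0.0104), and its log2 fold change in *Ifnar1* KO was -0.92 (SE 0.31, adjusted p = 0.0726). Markers of myoepithelial and basal cells had a summed level of 78.3, 58.7 and 70.8 CPM in WT, 35.7 to 45.9 in *Tlr7* KO and 42.5 to 46.9 in *Ifnar1* KO. Every knockout mouse was below every WT mouse, WT 2 included. Of the 6 markers, 5 were lower in *Tlr7* KO and 2 in *Ifnar1* KO, *Krt14* in both, beside 17.4% and 12.4% of all genes called lower. Without WT 2 the counts were 5 of 6 in each knockout (24.9% and 20.2% of all genes), and with all mice 5 and 6 had an unadjusted p under 0.05. The part of these markers in the *Col17a1* result was not tested.

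Members low in WT could not pass the filter, which was set on WT counts alone. *Col28a1*, a chain known from peripheral nerve, had 1, 0 and 2 counts in WT, 9, 11, 13, 11 and 10 in *Tlr7* KO, and 2, 12 and 3 in *Ifnar1* KO. Each *Tlr7* KO mouse was above each WT mouse, and only *Ifnar1* KO 2 reached the *Tlr7* KO range. Summed counts per effective library size were 13.6 times higher in *Tlr7* KO (exact 95% interval 4.41 to 67.9) and 6.34 times higher in *Ifnar1* KO (1.83 to 33.8), intervals that cover counting error only. Of the 17 *Ifnar1* KO counts 12 were from *Ifnar1* KO 2, and without that mouse, a setting added after seeing the data, the ratio was 2.80 (0.545 to 18.0). With no filter on low counts, edgeR gave *Col28a1* an adjusted p of 0.00304 in *Tlr7* KO and 0.145 in *Ifnar1* KO. This gene was singled out after its values were seen. *Col13a1*, a transmembrane chain, had 5, 3 and 13 counts in WT, 11 to 16 in *Tlr7* KO and 8 to 9 in *Ifnar1* KO (unfiltered adjusted p = 0.0531 in *Tlr7* KO). Schwann cell markers, beside which *Col28a1* may be read, summed to 18.8 to 29.7 CPM in WT, 13.7 to 16.4 in *Tlr7* KO and 11.9 to 18.0 in *Ifnar1* KO, with 2 and 1 of 5 lower, beside 17.4% and 12.4% of all genes.

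**Figure D3:**
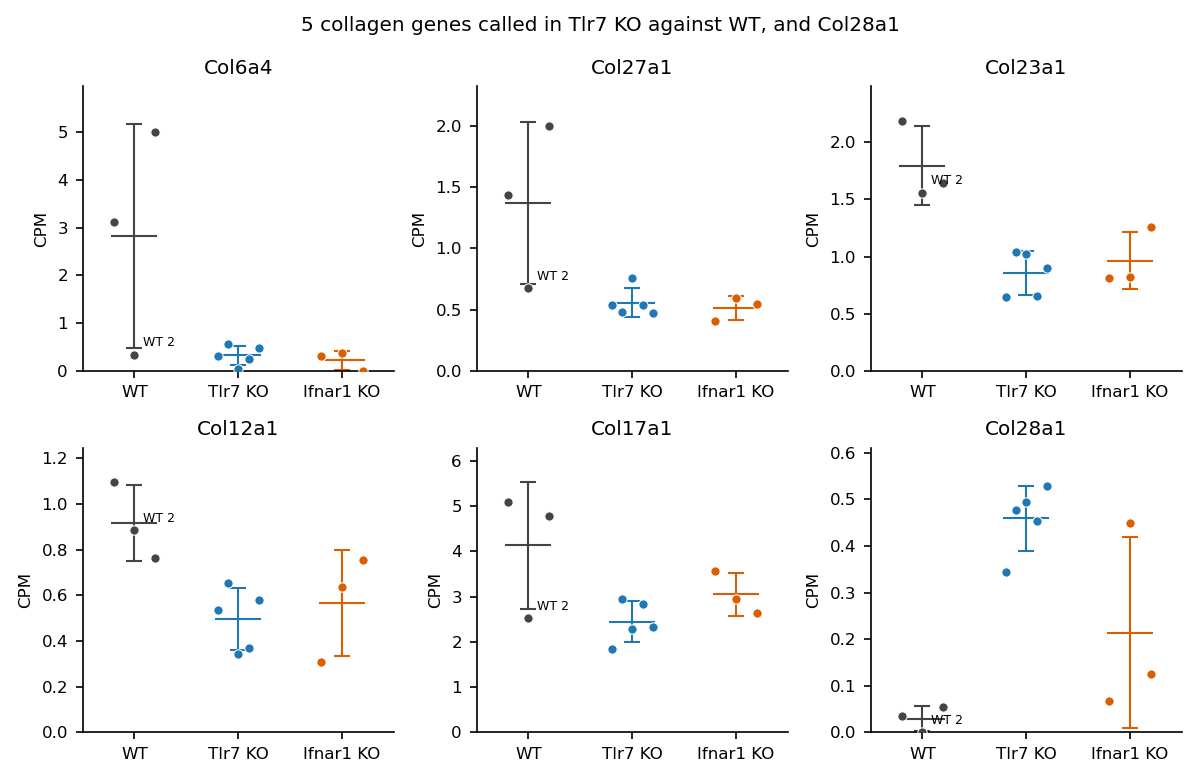
CPM of the 5 collagen genes called in *Tlr7* KO against WT and of *Col28a1*, with 1 point per mouse, a bar at the group mean and whiskers of 1 SD (WT n = 3, *Tlr7* KO n = 5, *Ifnar1* KO n = 3); each vertical axis starts at 0. WT and *Tlr7* KO points are separate for *Col23a1*, *Col12a1* and *Col28a1*, while WT 2 falls among or near the knockout points for *Col6a4*, *Col27a1* and *Col17a1*.

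Promoters of these members were read for motifs of interferon-responsive and general factors. RefSeq windows (GRCm38.p6) of 250 bases before the start were held for 32 of the 40 members, 35 windows in all, and both strands were searched for exact letters. The interferon-stimulated response element, searched as GAAA, any 2 bases and GAAA, was in none of the 32 members and in 2.98% of all 32851 windows. The gamma-activated site TTCNNNGAA was in 2 members, *Col28a1* and *Col6a5* (7.02% of all windows), and GGGCGG, the GC box, was in 20 members (32.7%). CCAAT was in 12 members (33.8%) and TATAAA in 4 (12.4%). Each window printed here holds a single match of these motifs, so none overlap. The windows of *Col23a1* at chr11:51289670-51289919 (+), *Col27a1* at chr4:63215162-63215411 (+) and *Col28a1* at chr6:8192618-8192867 (−) are shown because these genes were lower or higher in *Tlr7* KO and their windows hold no annotated exon. The *Col27a1* window precedes the RefSeq start but lies inside the gene as annotated by GENCODE, which starts at base 63214004. Capitals mark the GC box (on the reverse strand in *Col23a1*) or, in *Col28a1*, the gamma-activated site.
Col23a1: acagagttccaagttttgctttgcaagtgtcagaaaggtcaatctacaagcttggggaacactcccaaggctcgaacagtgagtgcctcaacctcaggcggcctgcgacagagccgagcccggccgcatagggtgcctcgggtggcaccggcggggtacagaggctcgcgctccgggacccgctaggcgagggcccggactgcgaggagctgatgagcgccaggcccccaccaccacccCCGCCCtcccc
Col27a1: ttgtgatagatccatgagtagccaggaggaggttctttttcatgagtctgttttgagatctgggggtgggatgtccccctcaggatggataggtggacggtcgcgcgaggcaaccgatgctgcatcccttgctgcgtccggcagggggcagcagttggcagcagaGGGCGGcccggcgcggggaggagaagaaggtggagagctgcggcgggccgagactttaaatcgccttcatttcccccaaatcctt
Col28a1: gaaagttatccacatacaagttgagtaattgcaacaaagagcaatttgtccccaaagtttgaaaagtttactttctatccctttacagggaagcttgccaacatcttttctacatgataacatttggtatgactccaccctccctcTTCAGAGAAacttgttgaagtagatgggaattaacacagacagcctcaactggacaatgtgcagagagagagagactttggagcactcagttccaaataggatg
A match says only that the letters are present, and their absence that these letters are not in the window.

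The collagen results turned on WT 2. With WT 2 left out, 11 of the 28 members were called in *Tlr7* KO against WT, all lower, beside 47.8% of all genes called and 24.9% called lower. In *Ifnar1* KO 11 were called, all lower, beside 33.5% of all genes called and 20.2% called lower. Because WT 2 was the lowest WT mouse for most members, more lower calls without it follow in part from that choice. In *Tlr7* KO the 11 were *Col6a1*, *Col6a2*, *Col6a4*, *Col9a3*, *Col14a1*, *Col16a1*, *Col11a2*, *Col27a1*, *Col4a6*, *Col17a1* and *Col23a1*, and *Col12a1* missed the threshold (adjusted p = 0.0524). In *Ifnar1* KO they were *Col6a1*, *Col6a2*, *Col6a3*, *Col6a4*, *Col9a3*, *Col16a1*, *Col1a2*, *Col27a1*, *Col4a1*, *Col15a1* and *Col17a1*, and *Col23a1* missed it (adjusted p = 0.0502). *Col6a1* then had a log2 fold change of -1.01 (SE 0.13, adjusted p = 0.000506) in *Tlr7* KO and -1.32 (SE 0.16, adjusted p = 0.00387) in *Ifnar1* KO. *Col6a4* had -3.67 (SE 0.48, adjusted p = 0.000474) and -4.13 (SE 0.67, adjusted p = 0.00755). *Col3a1* stayed uncalled at 0.24 (SE 0.21, adjusted p = 0.359) and -0.31 (SE 0.26, adjusted p = 0.385), its sign turned in *Ifnar1* KO. With WT 1 or with WT 3 left out instead, 1 member was called in *Tlr7* KO, *Col6a4* and *Col23a1* respectively, beside 19.6% and 18.7% of all genes called and 10.1% and 9.36% called lower. In *Ifnar1* KO 0 were called, beside 0.0933% and 0.868% of all genes, so these counts say nothing particular to collagens.

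**Figure D4:**
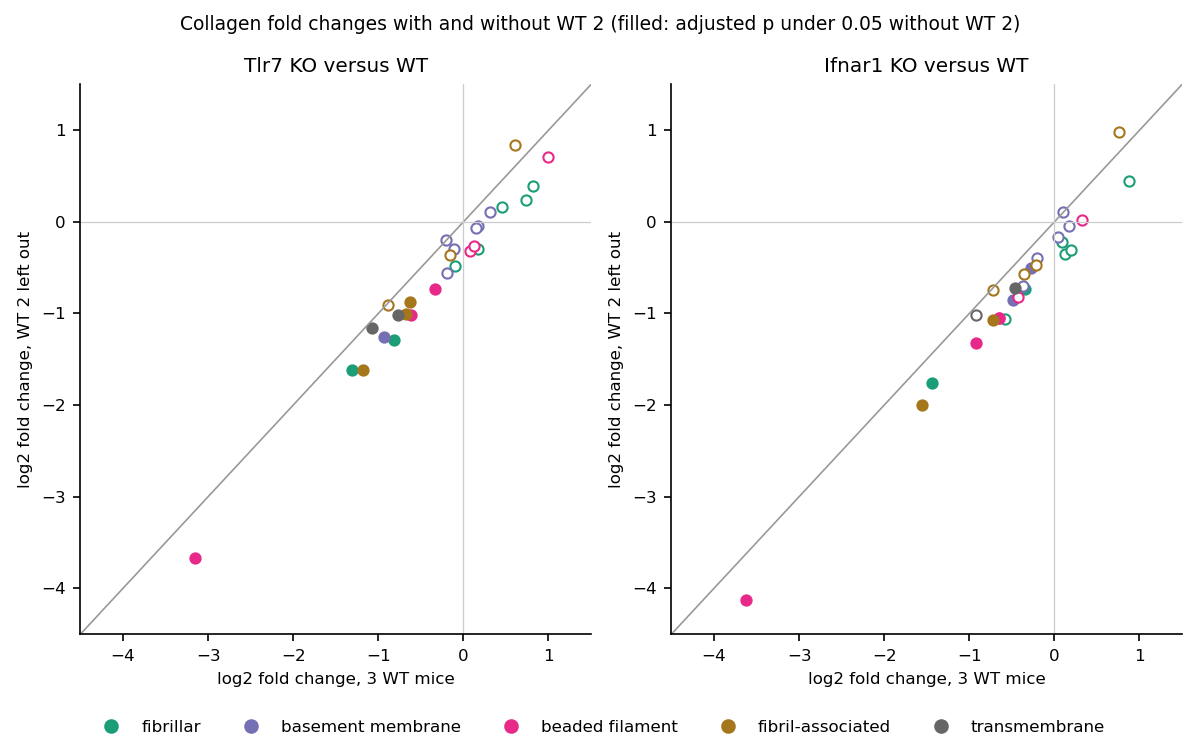
Log2 fold change of the 28 collagen genes tested with all 3 WT mice (horizontal axis) and with WT 2 left out (vertical axis), for *Tlr7* KO and *Ifnar1* KO against WT; the diagonal marks equal values and filled points have an adjusted p under 0.05 without WT 2. Most points lie below the diagonal, and 11 are filled in each panel.

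Between the knockouts, all 6 type VI members had higher estimates in *Tlr7* KO than in *Ifnar1* KO (median log2 fold change 0.50, range 0.29 to 0.71), and none passed the test. With library sizes alone as the scaling they were 0.098 to 0.51. Without *Ifnar1* KO 3, *Col6a4* turned to -0.082, while the other 5 stayed above 0 with each mouse left out in turn (0.18 to 0.96). Of all 28 members tested, 18 had estimates above 0 with all mice. Marker medians were above 0 for immune (0.90), endothelial (0.44), adipocyte (0.72), fibroblast (0.07) and skeletal muscle (3.96) lists. Those of mural, basal, acinar and Schwann cell lists were -0.16 to -0.06. No marker was called (edgeR), although 4 of 8 endothelial markers had an unadjusted p under 0.05. Their part in these estimates was not tested. *Col6a3* had 0.71 (SE 0.26, adjusted p = 0.221), *Col3a1* 0.53 (SE 0.20, adjusted p = 0.232), *Col4a1* 0.43 (SE 0.17, adjusted p = 0.246) and *Col5a2* 0.36 (SE 0.16, adjusted p = 0.289), the 4 members with an unadjusted p under 0.05. *Col1a1* had 0.04 (SE 0.24, adjusted p = 0.955) and *Col1a2* 0.23 (SE 0.18, adjusted p = 0.564). The 5 members called against WT did not differ detectably between the knockouts, with log2 fold changes of 0.46 (SE 0.82) for *Col6a4*, 0.12 (SE 0.30) for *Col27a1*, -0.17 (SE 0.28) for *Col23a1*, -0.18 (SE 0.38) for *Col12a1* and -0.32 (SE 0.19) for *Col17a1*. Their adjusted p values were 0.82, 0.873, 0.801, 0.851 and 0.428.

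The balance of *Col3a1* to the type I chains can be read within each library, free of scaling. Counts of *Col3a1* over *Col1a2* were 1.61, 0.606 and 1.31 in WT, 2.70, 2.18, 2.68, 2.38 and 2.23 in *Tlr7* KO, and 1.74, 2.04 and 2.07 in *Ifnar1* KO. No value of 1 group fell within the range of another, with WT lowest and *Tlr7* KO highest. The second count table gave 1.65, 0.669 and 1.34, then 2.20 to 2.81, then 1.73 to 2.09, in the same order of groups. With the other type I chain as denominator, *Col3a1* over *Col1a1* was 3.55, 2.73 and 3.53 in WT, 4.62 to 5.89 in *Tlr7* KO, and 3.54, 3.88 and 3.55 in *Ifnar1* KO. WT and *Ifnar1* KO then overlapped, and *Tlr7* KO stayed above both. These ratios were chosen after their values were seen and are given with no test. *Col1a1* over *Col1a2* showed no such order, at 0.453, 0.222 and 0.370 in WT, 0.380 to 0.530 in *Tlr7* KO and 0.490 to 0.584 in *Ifnar1* KO.

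**Figure D5:**
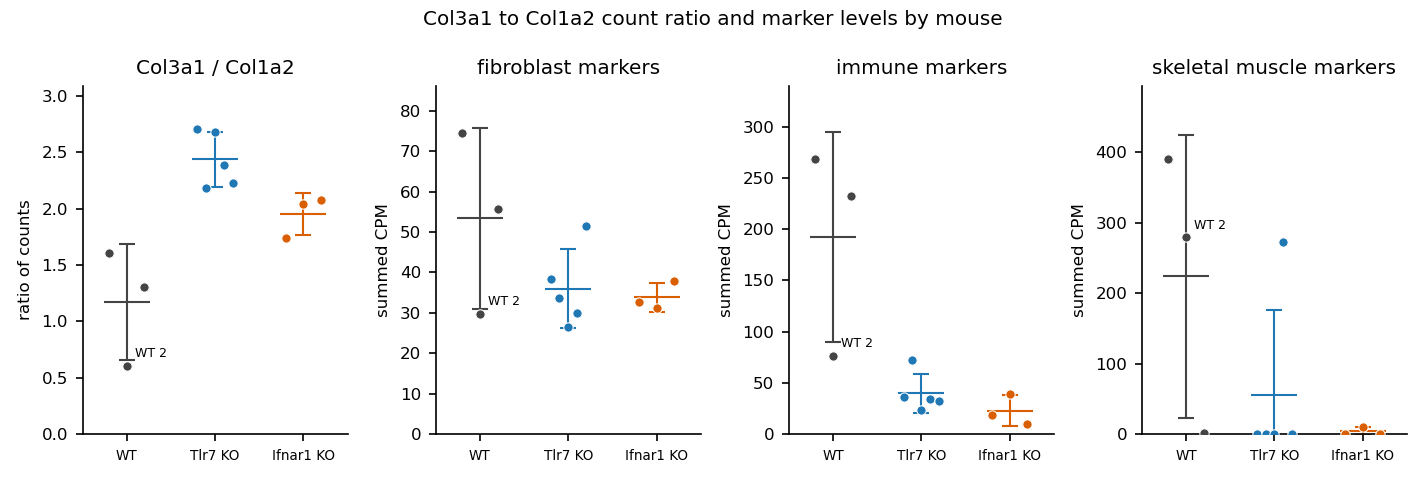
Ratio of *Col3a1* to *Col1a2* counts and summed CPM of fibroblast, immune and skeletal muscle markers, with 1 point per mouse, a bar at the group mean and whiskers of 1 SD (WT n = 3, *Tlr7* KO n = 5, *Ifnar1* KO n = 3); each vertical axis starts at 0. The ratio is 0.606 to 1.61 in WT, 1.74 to 2.07 in *Ifnar1* KO and 2.18 to 2.70 in *Tlr7* KO, while muscle markers are high in WT 1, WT 2 and *Tlr7* KO 4.

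Genes that build, anchor, sense and break down collagen gave mixed counts, from lists written from general knowledge, and most counts moved with WT 2. Of 18 tested genes of collagen synthesis and folding, 2 were lower and 2 higher in *Tlr7* KO, and 1 was lower and 1 higher in *Ifnar1* KO, beside 32.7% and 19.2% of all genes called. Without WT 2, when 47.8% and 33.5% of all genes were called, these counts were 4 lower and 5 higher, then 4 lower and 4 higher. With all mice the lower ones were *Plod2*, a lysyl hydroxylase of collagen telopeptides, with log2 fold changes of -1.44 (SE 0.36) and -2.24 (SE 0.55), and *P4ha1*, a prolyl hydroxylase subunit, with -0.92 (SE 0.24) in *Tlr7* KO. *Mia2*, an export receptor that loads collagen and other cargo, was higher in both (0.67, SE 0.11, and 0.70, SE 0.17). *P4hb*, the partner subunit of prolyl hydroxylase and an abundant general disulfide isomerase, was higher in *Tlr7* KO (0.67, SE 0.15). *Serpinh1*, the collagen chaperone, was 6.58 ± 2.69 CPM in WT (SD, n = 3), 4.25 ± 0.634 in *Tlr7* KO (n = 5) and 3.63 ± 0.60 in *Ifnar1* KO (n = 3), and was not called. Of 11 trimming and cross-linking genes, 1 was lower in *Tlr7* KO (*Adamts14*, a procollagen protease, -1.82, SE 0.60) and none was called in *Ifnar1* KO, where the unadjusted p was under 0.05 for 4. Without WT 2, 5 were lower in *Tlr7* KO and 6 in *Ifnar1* KO, with medians of -0.79 and -1.08. All genes called lower made up 17.4% and 12.4% with all mice and 24.9% and 20.2% without WT 2. The number of genes called in *Ifnar1* KO against WT also varied with the knockout mice, at 0 of the whole table without *Ifnar1* KO 1 or without *Ifnar1* KO 3 (edgeR, unadjusted p values under 0.05 for 4383 and 3778 genes) and 1590 (11.4%) without *Ifnar1* KO 2.

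Fibril partners, the small proteoglycans and matricellular proteins that sit on fibrils, had 5 of 11 lower and none higher in each knockout against WT, beside 17.4% of all genes called lower in *Tlr7* KO and 12.4% in *Ifnar1* KO. Without WT 2, 6 and 7 were lower, beside 24.9% and 20.2%. Among them were *Ccn2* (-1.91, SE 0.15, in *Tlr7* KO and -1.41, SE 0.15, in *Ifnar1* KO), *Postn* (-1.13, SE 0.26, and -1.53, SE 0.35), *Bgn* (-1.13, SE 0.22, and -1.49, SE 0.31), and *Prelp* (-0.78, SE 0.17, and -0.91, SE 0.20). *Ccn2*, a matricellular protein also called connective tissue growth factor, was 11.8, 10.2 and 11.3 CPM in WT, 2.37 to 3.65 in *Tlr7* KO and 3.89 to 4.86 in *Ifnar1* KO. WT 2 did not stand apart for it. Among 9 degradation genes, *Mmp14*, a membrane collagenase, was lower in both knockouts (-0.87, SE 0.23, and -1.43, SE 0.35) and *Fap*, a fibroblast protease, was higher in both (1.14, SE 0.09, and 1.05, SE 0.16). *Fap* was 4.55, 4.47 and 4.34 CPM in WT, 9.29 to 10.7 in *Tlr7* KO and 8.13 to 10.8 in *Ifnar1* KO, without overlap. *Mmp12*, a macrophage elastase, was higher in *Tlr7* KO (1.29, SE 0.38). Lower degradation genes went from 1 to 4 in each knockout without WT 2, beside 2 and 1 higher.

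Collagen receptors had 2 of 8 lower in *Tlr7* KO, *Itga2* (-1.91, SE 0.54) and *Lair1*, an inhibitory receptor of leukocytes (-1.29, SE 0.37), and 1 lower in *Ifnar1* KO, *Lair1* (-2.74, SE 0.48). Without WT 2, 3 and 2 were lower. All genes called lower made up 17.4% in *Tlr7* KO and 12.4% in *Ifnar1* KO, and 24.9% and 20.2% without WT 2, shares against which the counts of this paragraph are to be read. Basement membrane partners had 1 of 12 lower, *Lama5* (-1.12, SE 0.32), and 1 higher, *Nid2* (0.81, SE 0.23), in *Tlr7* KO, and none called in *Ifnar1* KO, where the unadjusted p was under 0.05 for 2. Without WT 2, 4 basement membrane partners were lower in each knockout and *Tlr7* KO still had 1 higher. Among hemidesmosome partners of *Col17a1*, the linker *Dst* was lower in *Tlr7* KO (-1.0, SE 0.16) and in *Ifnar1* KO (-1.19, SE 0.22), and the tetraspanin *Cd151* was higher in *Tlr7* KO (0.32, SE 0.10). TGF-beta genes, which drive collagen transcription in fibroblasts, had 4 of 12 lower and 2 higher in *Tlr7* KO and 5 lower in *Ifnar1* KO, and without WT 2 the counts were equal but for 1 higher in *Ifnar1* KO. The growth factor *Tgfb1* was lower in both (-1.14, SE 0.33, and -2.04, SE 0.45), as was the inhibitor *Smad7* (-0.58, SE 0.16, and -0.86, SE 0.20), while *Tgfb2* was higher in *Tlr7* KO (1.06, SE 0.30). No gene of these 8 lists was called between the knockouts (edgeR), where unadjusted p values under 0.05 numbered 1 in synthesis, 2 in trimming, 2 in degradation, 1 in receptors, 4 in fibril partners, 0 in basement membrane partners, 0 in hemidesmosome partners and 4 in TGF-beta genes.

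Markers of other cell types were read in the same fits, in which 32.7% of all genes were called in *Tlr7* KO and 19.2% in *Ifnar1* KO. Summed fibroblast markers were 74.5, 29.8 and 55.8 CPM in WT, 26.5 to 51.4 in *Tlr7* KO and 31.1 to 37.9 in *Ifnar1* KO, so WT 2 lay within the *Tlr7* KO range and below every *Ifnar1* KO mouse. Of 7 fibroblast markers, 2 were lower in *Tlr7* KO (*Pdgfra* and *Fbln1*) and 1 in *Ifnar1* KO (*Pdgfra*). Without WT 2, 6 and 4 were lower, beside 24.9% and 20.2% of all genes called lower. Mural cell markers were 31.6 to 36.3 CPM in WT, 17.3 to 23.2 in *Tlr7* KO and 24.1 to 26.9 in *Ifnar1* KO, with 2 and 0 of 5 lower, although unadjusted p values were under 0.05 for 4 and 3. Without WT 2, 4 and 3 of the mural markers were lower. Endothelial markers were 18.3 to 31.0, 14.1 to 19.4 and 9.75 to 13.5 CPM, with 2 of 8 lower in each knockout and 1 higher in *Tlr7* KO, and 3 lower in each and 0 higher without WT 2. Acinar markers, which define the gland, were 567.8 to 691.0 CPM in WT, 796.0 to 874.7 in *Tlr7* KO and 843.5 to 1056 in *Ifnar1* KO, with 2 of 5 lower in each and 2 and 1 higher, the last count being 3 without WT 2. Adipocyte markers were low throughout, at 2.30 to 21.7 CPM, with 0 of 4 called. Skeletal muscle markers reached 391.2 CPM in WT 1, 279.6 in WT 2, 272.7 in *Tlr7* KO 4 and 10.5 in *Ifnar1* KO 2, and stayed below 1 CPM in the other 7 libraries. Of 7 muscle markers, 0 were called in *Tlr7* KO (edgeR, with an unadjusted p under 0.05 for 0) and 2 were lower in *Ifnar1* KO, where all 7 had an unadjusted p under 0.05 (median log2 fold change -6.07). In only the libraries low in muscle transcripts, which leaves WT 3 as the single WT mouse, 7 members were called in *Tlr7* KO and 3 in *Ifnar1* KO, all lower, beside 31% and 11.7% of all genes called and 15.5% and 9.51% called lower. The spread in these fits comes from the knockout mice alone, and WT 3 is assumed to vary like them. The part of these cell types in the collagen results was not tested.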

How the data were processed

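Per the study's methods, the authors ran RNA reads of whole glands through bcbio 1.0.8, which aligned them with HISAT2 2.1.0 (mm10, Ensembl annotation) and, separately, estimated transcript abundance with salmon 0.9.1; tximport turned the latter into gene counts. Which route gave each table is not stated in the sources used here. The deposited values are whole counts per gene, not scaled, although the table used is labelled normalized. Expression is 1 library per mouse, so p-values reflect the spread between mice. A single column (1) of the second deposited count table matched no sample and was not used, and 485 rows of the main table without a symbol were left out.

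WT, *Tlr7* KO and *Ifnar1* KO were compared pairwise with edgeR 4.0.16 (R 4.3.3) quasi-likelihood tests and TMM scaling, on 13937 genes with at least 30 counts summed over WT mice, with Benjamini-Hochberg adjustment over all of them. DESeq2 1.42.0, other scalings, filters, fits, the second table, the replicate block and leaving out each mouse were tried. Leaving out libraries with muscle transcripts was added after seeing the data. The fits were checked on simulated data, but no outcome of that check is given here, so no result rests on it. Collagen members and lists were chosen with earlier results of these data known. Named in full by rule were the main chains of types I, III to VI, XIV, XV, XVII and XVIII and every member called; of each pathway list, up to 4 called genes per comparison by size. Other members named with values were chosen after these were seen. A result of the hemidesmosome list is not reported here.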

Additional observations from a re-analysis of the deposited data

Results flagged for a closer look

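Each of 36 group values with 4 to 10 mice was examined for a mouse far from the others, and 3 met the criterion, which chance meets in about 1 in 20 groups. *Col1a2* was 27.6 CPM in *Tlr7* KO 5, against 15.3 to 18.9 in the other 4 *Tlr7* KO mice. *Col27a1* was 0.759 CPM in *Tlr7* KO 3, against 0.475 to 0.536 in the others. The summed fibril-associated collagens were 6.52 CPM in *Tlr7* KO 2, against 7.92 to 8.07 in the others.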

How the results depend on the processing

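For collagen genes called in *Tlr7* KO against WT (5), 9 of 28 were called with library sizes alone (31.6% of all genes), 7 of 31 with filterByExpr (32.3%), 6 of 40 with no filter (22.3%; without *Col12a1*, with *Col24a1* lower and *Col28a1* higher) and 0 at an adjusted p under 0.01 (14.1%). DESeq2 called 4 members in this comparison (33% of all genes). Leaving out 1 mouse gave 1 to 11: 11 without WT 2, 1 without WT 1 or WT 3, and 3 without *Tlr7* KO 1, 3, 4 or 5 (23.6% to 28% of all genes). In *Ifnar1* KO against WT (0), DESeq2 called 2 (24.1% of all genes), library sizes alone 1 (9.61%), a fit of all 11 mice 3 (36.8%), the second deposited count file 1 (19.2%), the low-muscle libraries 3 (11.7%), and leaving out 1 mouse 0 to 11. The median in *Tlr7* KO was -0.74 with library sizes alone, which moves the median of all genes to -0.54 (-0.31 in *Ifnar1* KO and -0.19 between knockouts). With a replicate block 0 members and 14 of all 13937 genes (0.1%) were called in *Tlr7* KO. Correlations of mice with equal numbers were -0.47 to -0.036 against WT and 0.065 to 0.33 between the knockouts. The labels name no pairing, so whether equal numbers pair the mice is not known. Of 916 alternative values of the 18 named genes, 814 kept direction and call and 49 turned direction. The turns given below cover those 18 genes only. With library sizes alone the turned log2 fold changes were, in *Tlr7* KO, *Col1a1* -0.51, *Col4a1* -0.38, *Col4a2* -0.24, *Col5a2* -0.14 and *Col6a3* -0.56; in *Ifnar1* KO, *Col1a1* -0.34, *Col3a1* -0.29, *Col4a2* -0.30 and *Col5a2* -0.32; between knockouts, *Col18a1* -0.12, *Col1a1* -0.16 and *Col27a1* -0.056. With the replicate block they were *Col6a3* -0.024 in *Tlr7* KO and *Col1a1* -0.20 between knockouts. In the low-muscle libraries they were *Col1a1* -0.037, *Col4a1* -0.083 and *Col6a3* -0.012 in *Tlr7* KO, and *Col1a1* -0.10, *Col3a1* -0.047, *Col4a2* -0.20 and *Col5a2* -0.25 in *Ifnar1* KO. Leaving out 1 mouse at a time turned the direction of these, given as lowest to highest: in *Tlr7* KO, *Col15a1* -0.56 to 0.13, *Col18a1* -0.29 to 0.032, *Col1a1* -0.30 to 0.68, *Col1a2* -0.48 to 0.22, *Col4a1* -0.050 to 0.33 and *Col6a3* -0.32 to 0.59; in *Ifnar1* KO, *Col14a1* -0.58 to 0.0098, *Col1a1* -0.35 to 0.64, *Col3a1* -0.31 to 0.76, *Col4a2* -0.16 to 0.19 and *Col5a2* -0.22 to 0.30; between knockouts, *Col12a1* -0.48 to 0.078, *Col1a1* -0.13 to 0.26, *Col23a1* -0.27 to 0.063, *Col27a1* -0.026 to 0.24, *Col5a1* -0.32 to 0.40 and *Col6a4* -0.082 to 0.96. The cause of these turns was not tested. At 3 to 5 mice a group, genes under about 1 CPM rest on few counts.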

Other observations

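As a share of all collagen CPM, the fibrillar members held 49.9%, 25.2% and 41.0% in the WT mice, 53.0%, 47.6%, 49.0%, 47.0% and 58.4% in *Tlr7* KO, and 39.6%, 49.3% and 51.1% in *Ifnar1* KO. WT 2 held the lowest share of the 11 mice, and the other WT mice lay within or near the knockout range. The counts of *Col6a1* over *Col6a2*, neighbours on chromosome 10 that encode partner chains, were 1.09, 1.14 and 1.20 in WT, 0.776 to 1.41 in *Tlr7* KO and 0.851 to 1.14 in *Ifnar1* KO.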
